A study of Brassica oleracea with 15 samples.

Results

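The transcripts described here are nuclear genes whose signal was lower in both flanks of blue-light-stimulated Brassica oleracea hypocotyls than in gravity-stimulated and unstimulated hypocotyls. Of 11368 probe sets with a mean log2 signal of at least 8.28, 100 (0.88%) had both blue light group means at least 0.4 below the lowest of the bottom, top and control means on the log2 scale. Of these, 16 were left out as organelle-encoded, 15 by their plastid or mitochondrial symbol and 1, AT2G07708, because its probe set lies in the organelle block of the array. The other 84 are the members, each with the gap by definition. The level limit applies to the mean over all arrays: 44 members had all 5 group means at or above it, 25 had both blue light means below it, and 1, AT3G25810, reached it through its gravity arrays alone. No probe set named for a beta-tubulin, XTH or expansin gene had the gap, and AT5G45670 did not have it either. A gene symbol was available for 40 members, and 44 are unnamed here.

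The hypocotyl is the seedling stem between root and cotyledons. Wild-type seedlings, 3 days old and dark-grown, were exposed for 2 h to unidirectional blue light, given a gravitropic stimulation for 2 h, or mock stimulated. Each of 15 arrays measured a pool of about 100 seedlings, and the groups of 3 arrays were the shaded flank, the lit flank, the gravity-stimulated bottom flank and top flank, and the control, whose left and right flanks were collected together. Only the outer part of the hypocotyl was taken for each flank, about 1 cm long, and nothing in the labels ties single arrays of different groups to 1 seed lot or day. The submitters call the 15 samples biological, and the p-values measure only the spread between these pools. Vascular tissue was cut away. RNA was hybridised to Arabidopsis ATH1 arrays, so genes carry Arabidopsis names and a probe set reads a Brassica transcript only as far as their sequences match. Signals of different genes were therefore not set against each other.

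A dark-grown hypocotyl elongates fast, pale and hook-topped, and blue light read by phototropins and cryptochromes both bends it and starts its change to a green seedling. Phototropins act across the stem and direct auxin to the shaded side, while cryptochromes and phytochromes slow growth and change transcription throughout the organ. Genes known to be lowered by light in Arabidopsis seedlings include regulators of elongation and the phytochrome A gene. Only 1 gene from a list of 12 such genes was measured among the brighter probe sets, HAT2, an auxin-inducible homeodomain gene, and it was not a member (blue light minus control 0.43, SE 0.24, adjusted p = 0.58, limma). Of 17 genes that light raises, 3 were measured, none was a member, and RCA (Rubisco activase) and PRK (phosphoribulokinase) passed the test on the higher side, with log2 changes of 1.06 and 1.24 against the control (adjusted p = 0.036 and 0.031, limma), where 0.088% of all tested probe sets passed as higher. PORB, a protochlorophyllide oxidoreductase, was at 0.28 (SE 0.20, adjusted p = 0.69). On leaving out single arrays, RCA kept its call in 7 of 15 cases and PRK in 10 of 15. The adjusted p of RCA was 0.21 and 0.14 without control replicates 1 and 2, and that of PRK 0.20 and 0.16 (limma). The gene lists were chosen with earlier results of these data known, so nothing is read from the calls of RCA and PRK. None of 10 photoreceptor and phototropism genes, 9 vascular markers and 8 epidermis markers matched a named probe set, so the tissue was not checked against its markers here. The symbol FDH of the epidermis list, which belongs to another gene on the array, was not counted as a match.

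The members were chosen on the differences between blue light and the other groups, so those differences are given as a description with no test. Over the 84 members the median log2 difference was -0.78 against the control and -0.87 against gravity stimulation, where the medians over all tested probe sets were 0.00 and 0.01. Against the control the members ran from -2.04 to -0.46, and against gravity stimulation from -3.31 to -0.43. All 84 had their lowest signal of the 15 arrays on a blue light array, which the rule largely sets. In bulk tissue, fewer cells of a type and less RNA per cell cannot be told apart. Without dates or seed lots in the labels, treatment and batch cannot be told apart.

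Log2 signals of arrays in 1 group correlated at 0.824 to 0.875, and no array stood apart. Beside the members, the log2 signal of 3' minus 5' probe sets of control transcripts, which is larger where more of the signal lies at the 3' end, averaged -0.31 ± 0.15 (SD, n = 6) on the blue light arrays, 0.06 ± 0.30 (n = 3) on the control arrays and -0.17 ± 0.11 (n = 6) on the gravity arrays. It is the mean for actin, GAPDH and ubiquitin, which disagreed in sign. On every array GAPDH was negative and actin and ubiquitin positive, with -2.08, 2.21 and 1.05 on control replicate 1. How well these Arabidopsis probe sets match Brassica was not tested, so the mean is a coarse measure. Blue light differed from the control by -0.37 (two-sided exact permutation p = 0.048, adjusted over 2 comparisons 0.095) and from gravity by -0.14 (p = 0.0996, adjusted 0.0996). Control replicate 1, at 0.40, carried much of the former, which was -0.20 without it (adjusted 0.14). The permutation took all arrays as independent. Shaded and lit arrays were at -0.43 and -0.50 for replicate 1, -0.345 and -0.29 for replicate 2, and -0.08 and -0.24 for replicate 3. If flanks of 1 number came from the same seedlings, which the labels do not say, these p-values are too small. The part of the 3' minus 5' difference in the members' difference was not tested.

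**Figure D1:**
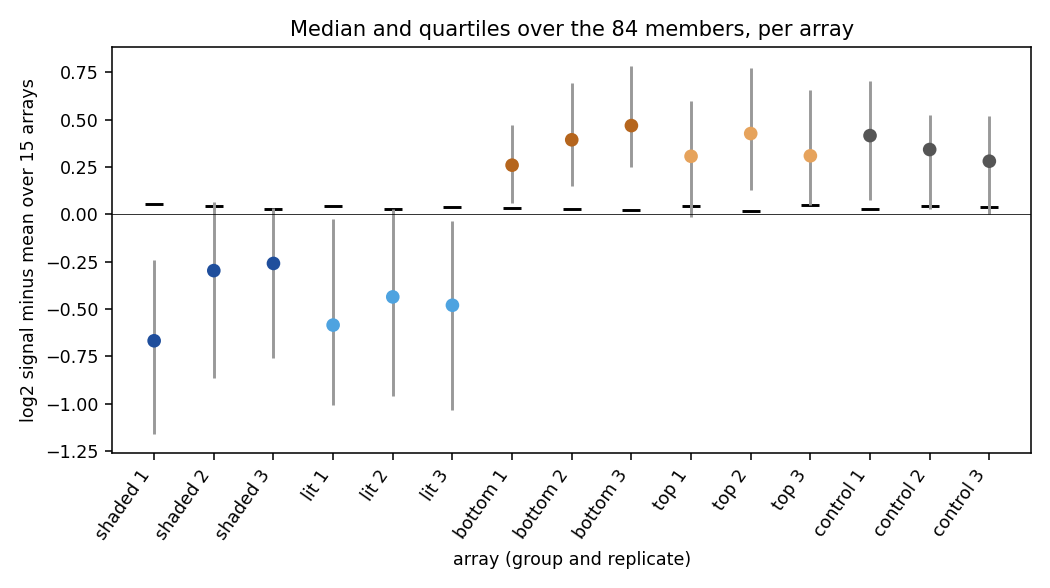
Median (points) and quartiles (grey lines) over the 84 members of log2 signal minus each member's mean over 15 arrays, for each array, with the median over all tested probe sets as black dashes. The 6 blue light medians lie between -0.67 and -0.26 and the 9 others between 0.26 and 0.47; the choice of members sets this separation.

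The 6 blue light arrays did not carry the members evenly. The median of log2 signal minus the member's mean was -0.67 on shaded replicate 1, -0.30 on shaded replicate 2, -0.26 on shaded replicate 3, and -0.58, -0.44 and -0.48 on lit replicates 1, 2 and 3. The lowest signal of a member fell on shaded replicate 1 for 20 members, on shaded replicates 2 and 3 for 7 and 6, and on lit replicates 1, 2 and 3 for 15, 19 and 17. Without shaded replicate 1 the same rule chose 83 probe sets, of which 58 were among the 84.

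Complete separation was rare. In 8 members every blue light array lay below every one of the 9 other arrays, against 24 of all tested probe sets (0.211%). The rule used these values, so nothing is read from that count. In 53 members all 6 blue light arrays lay below the median of the other 9, in 16 members 5 did and in 15 members 4 did. Counted against the lowest of the other arrays, 5 blue light arrays lay below it in 14 members, 4 in 22, 3 in 25, 2 in 12 and 1 in 3. The shares of all tested probe sets with such counts were not computed and the rule used these values, so nothing is read from the counts. In most members at least 1 blue light array was not below the lowest of the other 9.

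The spread between replicates was wide. The residual SD of log2 signal within groups had a median of 0.60 over the members and 0.35 over all tested probe sets, and it was above the latter in 72 of the 84 members. The members were also dimmer, with a median mean log2 signal of 9.01 against 9.32 over all tested probe sets, and no background of matched level was compared. A fixed gap between means of few arrays also favours probe sets of wide spread, so the contrast is a description. The median residual SD was 0.62 over the named and 0.58 over the unnamed members. The rule has no limit on the spread, so members with 1 very low array stand beside members that were low on all 6.

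**Figure D2:**
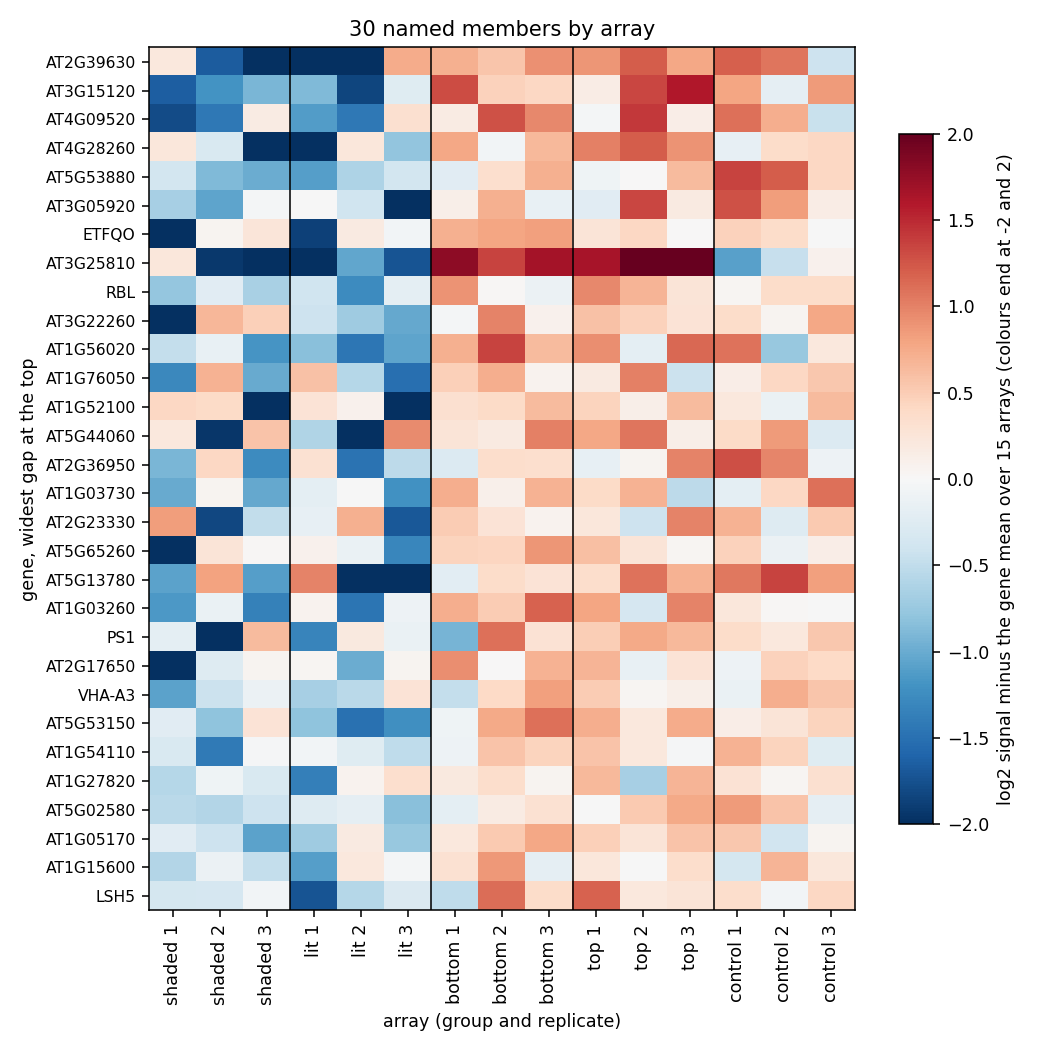
Log2 signal minus the gene's mean over 15 arrays for the 30 named members of widest gap (rows) on each array (columns, with lines between groups). Blue cells are low. Every row has its lowest value among the 6 blue light arrays on the left, which the rule largely sets. In rows such as ETFQO and AT1G52100 only 2 of the 6 are far below the mean.

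Among genes of chromatin and RNA, AT3G15120, an AAA-type ATPase gene, had the second widest gap of all members, 1.47. Its signals were 107.0, 147.2 and 177.0 on the shaded arrays, 182.0, 94.0 and 283.6 on the lit ones, 824.2, 459.6 and 446.5 on the bottom ones, 370.2, 848.7 and 1015.2 on the top ones, and 579.5, 295.6 and 608.0 on the control ones. All 6 blue light arrays lay below all 9 others, and the lit flank replicate at 283.6 was close to the lowest control array, at 295.6. The log2 difference was -1.61 (SE 0.43) against the control and -1.99 (SE 0.35) against gravity stimulation.

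RBL encodes a WD40-repeat protein related to RbBP5, a subunit of COMPASS complexes, which methylate histone H3. It had signals of 238.4, 346.8 and 259.4 on the shaded arrays, 307.1, 170.9 and 356.9 on the lit ones, 755.6, 415.6 and 376.1 on the bottom ones, 793.7, 651.7 and 486.9 on the top ones, and 418.1, 525.2 and 525.9 on the control ones. The blue light arrays were again all lower, the highest at 356.9 against a lowest other array of 376.1, and the differences were -0.84 (SE 0.31) and -1.04 (SE 0.25) against control and gravity. The gap of RBL, 0.81, was met on leaving out any 1 of the 15 arrays.

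In the other RNA genes fewer blue light arrays were low. AT5G65260, a nuclear poly(A)-binding protein gene (PABN2), had 202.3 on shaded replicate 1 and 345.9 on lit replicate 3, while the other 4 blue light arrays lay at 772.2 to 1018.8, 3 of them within the range of the control arrays, 781.3 to 1172.7. Its difference from the control was -0.68 (SE 0.41). AT1G76050, a pseudouridine synthase family gene, was low on 4 blue light arrays (199.6 to 382.0) and high on the other 2, at 850.3 and 912.2, above each control array. AT1G27820, of the CAF1 family of deadenylases, which shorten poly(A) tails, is measured by a probe set of the x type that can bind related transcripts, and differed by -0.54 (SE 0.39) from the control.

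Among genes of sugar transfer, membranes and the vacuole, AT2G39630 had the widest gap of all, 1.76. It encodes a glycosyltransferase related to ALG5, the enzyme that makes dolichyl-phosphate glucose for protein glycosylation. Its signals were 1489.8, 407.1 and 313.4 on the shaded arrays, 307.1, 296.9 and 2142.7 on the lit ones, 2100.8, 1894.5 and 2423.0 on the bottom ones, 2376.5, 2965.5 and 2186.2 on the top ones, and 2931.3, 2705.8 and 966.8 on the control ones. In 4 blue light arrays the signal lay between 296.9 and 407.1, below every other array, while shaded replicate 1 and lit replicate 3 lay within the range of the control, 966.8 to 2931.3. The difference from the control was -1.77 with an SE of 0.56, and the residual SD was 1.00.

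VHA-A3, a subunit of the proton pump of the vacuolar membrane, was measured at 761.9, 1192.1 and 1474.5 on the shaded arrays, 1012.0, 1097.9 and 1930.3 on the lit ones, 1148.8, 2115.7 and 2834.9 on the bottom ones, 2287.6, 1641.5 and 1733.1 on the top ones, and 1465.8, 2664.4 and 2359.3 on the control ones. The lit flank reached 1930.3 and one bottom flank array was at 1148.8, so the groups overlapped, with differences of -0.81 (SE 0.29) and -0.66 (SE 0.24). AT1G05170, a galactosyltransferase family gene, lay at 526.5 to 1250.3 on blue light arrays and at 1283.7 to 1901.4 on gravity arrays without overlap, but its control arrays began at 850.2. All 6 blue light arrays lay below all 6 gravity arrays in 14 members (0.994% of all tested probe sets) and below the 3 control arrays in 15 (3.09%), again values that the rule used.

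PS1, a presenilin gene, encodes a membrane protein of the gamma-secretase type. It reached 760.9 on one shaded array and 76.2 on another, and its blue light signals spanned 9.99-fold, with 2 of 6 below the lowest other array. AT1G54110, related to the SNARE protein Use1, and AT1G03260, of the SNARE-associated Golgi protein family, differed from the control by -0.72 (SE 0.30) and -0.77 (SE 0.41). In each of these 6 genes the shaded group mean was the lower one, by less than its SE in every case.

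Among metabolic enzymes, AT4G09520, a cofactor-independent phosphoglycerate mutase gene of glycolysis, had signals of 108.0, 138.9 and 420.9 on the shaded arrays, 173.0, 138.5 and 466.2 on the lit ones, 421.8, 904.3 and 728.7 on the bottom ones, 365.8, 1000.2 and 410.0 on the top ones, and 806.0, 617.5 and 273.7 on the control ones. On 4 blue light arrays it lay below every other array, and on one array of each flank it overlapped the control. The differences were -1.34 (SE 0.52) and -1.53 (SE 0.42).

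ETFQO passes electrons from the mitochondrial breakdown of amino acids to ubiquinone, a route used when plants starve in the dark. Its signals were 88.9, 485.1 and 552.3 on the shaded arrays, 128.1, 528.2 and 448.1 on the lit ones, 767.8, 803.5 and 820.3 on the bottom ones, 561.0, 622.1 and 471.7 on the top ones, and 641.3, 604.7 and 466.7 on the control ones. The low means came from 88.9 on shaded replicate 1 and 128.1 on lit replicate 1, and of the other 4 blue light arrays 3, at 485.1 to 552.3, overlapped the control and top flank arrays, and 1, at 448.1, lay just below them. On leaving out single arrays, 13 of 15 choices kept ETFQO as a member.

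AT2G17650, an AMP-dependent synthetase and ligase family gene, differed by -0.79 (SE 0.42) from the control and by -0.94 (SE 0.35) from gravity. AT3G25810, a terpene synthase gene, had signals of 406.4, 91.5 and 76.6 on the shaded arrays, 60.0, 169.8 and 105.8 on the lit ones, 1206.4, 887.3 and 1104.3 on the bottom ones, 1091.5, 1416.2 and 1586.7 on the top ones, and 164.2, 253.9 and 368.2 on the control ones. It was high on all 6 gravity arrays, intermediate on the control arrays and lower on 4 of 6 blue light arrays, while lit replicate 2, at 169.8, lay within the control range and shaded replicate 1, at 406.4, above it. Its difference from gravity stimulation, -3.31 (SE 0.39), was the largest of all members, and that from the control was -1.04 (SE 0.48).

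**Figure D3:**
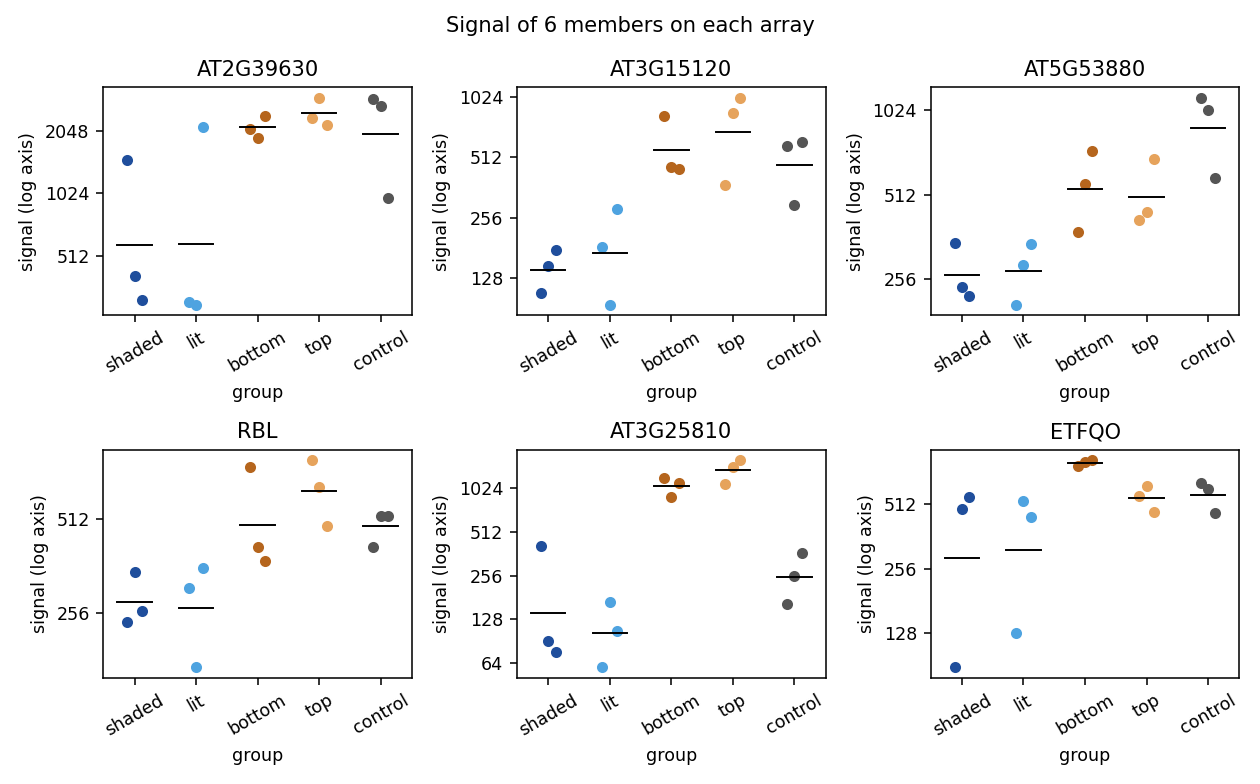
Signal on each array (points, log axis) of AT2G39630, AT3G15120, AT5G53880, RBL, AT3G25810 and ETFQO in the 5 groups, with the mean of log2 signal as a line. AT3G15120, AT5G53880 and RBL have all 6 blue light arrays below the others, AT2G39630 has 4 of them between 296.9 and 407.1, and ETFQO has 2 far below its other arrays.

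Among genes of protein modification and folding, AT5G13780, the catalytic subunit NAA10 of the NatA complex that acetylates the N-termini of proteins, had the largest difference from the control of any member, -2.04 (SE 0.65). Its signals were 178.9, 657.2 and 175.2 on the shaded arrays, 748.3, 65.7 and 50.2 on the lit ones, 323.9, 486.6 and 453.0 on the bottom ones, 478.0, 795.9 and 606.6 on the top ones, and 779.8, 963.3 and 660.1 on the control ones. Blue light arrays ran from 50.2 to 748.3. Lit replicate 1, at 748.3, lay within the control range, shaded replicate 2, at 657.2, just below it and within the gravity range, and the other 4 below every other array. AT5G53150, a DnaJ-domain co-chaperone gene, had 5 of 6 blue light arrays below every other array and differences of -1.0 (SE 0.32) and -1.29 (SE 0.26). AT3G22260, an OTU-like cysteine protease gene, had 72.1 on shaded replicate 1 but 655.7 and 575.9 on the other shaded arrays.

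AT3G05920 and AT2G36950 encode proteins with a heavy-metal-associated domain. AT3G05920 had signals of 309.8, 236.2 and 474.1 on the shaded arrays, 488.1, 370.7 and 114.1 on the lit ones, 533.0, 800.0 and 443.3 on the bottom ones, 417.8, 1238.6 and 553.2 on the top ones, and 1185.6, 872.3 and 541.5 on the control ones. All 6 blue light arrays lay below the 3 control arrays, but the gravity arrays, from 417.8, overlapped. AT2G36950 differed by -1.29 (SE 0.43) from the control, with 2 blue light arrays, at 871.3 and 807.1, above 1 control array. AT1G52100, a jacalin-related mannose-binding lectin gene, had 98.0 and 111.5 on one array of each flank and 510.0 to 639.9 on the other 4, which overlapped the control.

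LSH5, of the ALOG family named for light-dependent hypocotyl growth of one Arabidopsis member, had signals of 321.1, 322.9 and 392.7 on the shaded arrays, 122.7, 275.1 and 332.6 on the lit ones, 286.5, 884.5 and 528.0 on the bottom ones, 920.7, 474.8 and 489.9 on the top ones, and 518.1, 394.5 and 543.6 on the control ones. All 6 blue light arrays lay below the control arrays, the highest at 392.7 against 394.5, and 4 of them lay above 1 bottom flank array at 286.5. The differences were -0.79 (SE 0.38) and -1.0 (SE 0.31).

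The other 8 of the 30 genes of widest gap, for which no role is given here, differed from the control by -1.71 to -0.54. AT5G53880 had the clearest separation among them, with signals of 343.3, 240.2 and 222.9 on the shaded arrays, 207.6, 288.2 and 342.8 on the lit ones, 377.7, 558.1 and 729.1 on the bottom ones, 416.4, 445.2 and 687.7 on the top ones, and 1134.0, 1027.5 and 588.8 on the control ones. All 6 blue light arrays, at most 343.3, lay below all others, at least 377.7, and the differences were -1.71 (SE 0.30) and -0.95 (SE 0.25). AT5G02580 had 5 of 6 blue light arrays, 1820.0 to 2722.9, below every other array, from 2850.0, with differences of -0.88 (SE 0.22) and -0.72 (SE 0.18). AT5G44060 showed the widest spread of any named member, from 27.3 to 625.2 on the lit arrays alone, a 22.9-fold range over the blue light arrays. AT4G28260, AT1G56020, AT1G03730, AT2G23330 and AT1G15600 had 3 or 4 of the 6 blue light arrays below the lowest other array.

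Of the 8 members with complete separation, 5 carried a name: AT3G15120, AT5G53880, RBL, AT3G51660 and AT2G31390. AT2G31390 was singled out after its values were seen. It encodes a fructokinase, which phosphorylates fructose from sucrose breakdown, and had signals of 1155.7, 1661.4 and 1890.7 on the shaded arrays, 1179.8, 1791.0 and 1149.4 on the lit ones, 3005.4, 3453.7 and 3880.7 on the bottom ones, 3002.1, 3607.2 and 3210.1 on the top ones, and 2182.1, 2118.4 and 2131.5 on the control ones. It was lowest after blue light, intermediate on the 3 control arrays, which lay within 2118.4 to 2182.1, and highest after gravity stimulation, from 3002.1. AT3G51660, of the tautomerase family related to macrophage migration inhibitory factor, had a residual SD of 0.20, and its blue light arrays, up to 1142.1, lay below the others, from 1229.6. Its gap of 0.41 put it just inside the rule.

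The 44 unnamed members had gaps of 0.41 to 0.88 and differences from the control of -2.03 to -0.46. The unnamed probe set of widest gap, 253923_at, had signals of 356.4, 86.6 and 827.4 on the shaded arrays, 367.1, 333.2 and 150.0 on the lit ones, 660.3, 295.3 and 814.6 on the bottom ones, 456.2, 873.9 and 457.6 on the top ones, and 916.7, 997.8 and 706.5 on the control ones. Shaded replicate 3 lay within the control range, and bottom replicate 2 was below 4 of the 6 blue light arrays. The next, 246153_s_at, differed from control and gravity by -0.92 and -1.01. At the edge of the rule, AT3G51660, AT1G22910 (an RNA-binding protein gene) and AT1G21010 lay just inside with gaps of 0.415, 0.41 and 0.409, and AT4G24060, the small GTPase gene RAB6A and AT1G58230 just outside with 0.393, 0.39 and 0.389. In all, 34 of the 84 members had a gap under 0.5, and 4 had one of at least 1.

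The rule names no direction between the flanks of 1 stimulation or between gravity stimulation and the control. It uses the same group means, however, and by taking the higher blue light mean and the lowest other mean it favours members in which these means lie close together. The limma fit over all 11368 probe sets is therefore given for these differences as a description, and nothing is read from small differences or from few calls among the members. The shaded group mean was the lower one in 44 members and the lit one in 40, and the median shaded minus lit difference was -0.01, against 0.00 over all probe sets. No member and no other probe set passed the threshold (0% called, limma). At an unadjusted p under 0.05 there were 2 members, both higher in the shaded flank, AT5G53150 and 1 unnamed, where 5.25% of all probe sets had such a p. For AT5G53150 the difference was 0.93 (SE 0.37, adjusted p = 0.89), and for AT5G13780, with the largest estimate, 1.02 (SE 0.75, adjusted p = 0.99). In 69 of the 84 members the difference was smaller than its SE, a share that the rule favours. The share over all probe sets was not computed, so nothing is read from this count.

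Gravity-stimulated flanks lay above the control in 47 members and below it in 37, with a median difference of 0.03, against -0.01 over all probe sets. With AT3G25810 left out of the count, no member was past the threshold, where 0.369% of all probe sets passed as higher and 0.73% in both directions (limma). AT3G25810 was 4.80-fold higher after gravity stimulation than in the control (log2 difference 2.26, SE 0.48). Its group mean log2 signals were 7.15 shaded, 6.68 lit, 7.96 control, 10.05 bottom and 10.40 top. It passed the level limit only through the groups in which it is high, so its difference is given with no test. On the higher side AT2G31390 (0.64, SE 0.17, adjusted p = 0.098, limma) and 1 unnamed probe set (1.07, SE 0.29, adjusted p = 0.096, limma) did not pass. AT5G53880 (-0.76, SE 0.30, adjusted p = 0.29, limma), on the lower side, was far from the threshold. With AT3G25810 left out here too, these were the only members with an unadjusted p under 0.05, beside 12.6% of all probe sets.

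The bottom flank was higher than the top flank in 43 members and lower in 41, and the median difference was 0.00. None of the members passed (0.0352% of all probe sets did, limma), and 1, unnamed, had an unadjusted p under 0.05, beside 7.49% of all. In the comparison of both elongating flanks, shaded and bottom, with the opposite flanks, 0 members passed (0.238% of all probe sets did, limma), 2 had an unadjusted p under 0.05 (8.63% of all), and the median difference was 0.02. No member passed the limma interaction test, which sets shaded minus lit against bottom minus top and called 0% of all probe sets, and 0 members had an unadjusted p under 0.05, beside 3.37% of all.

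**Figure D4:**
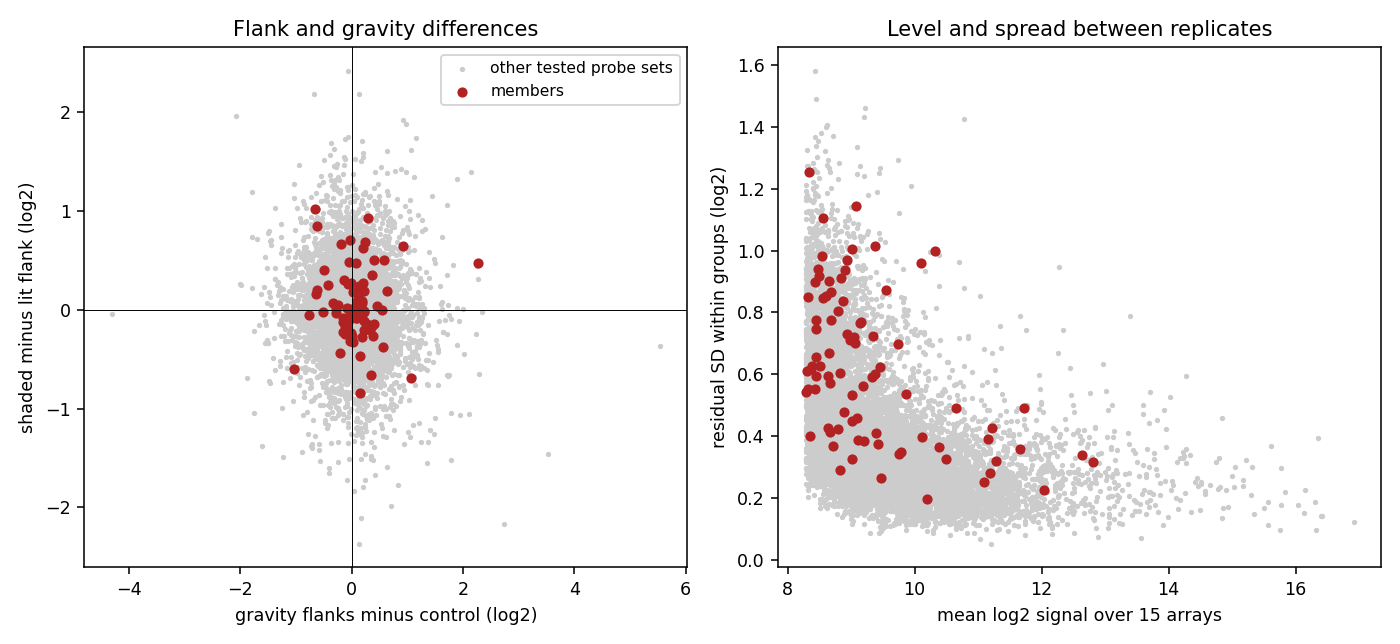
Left, gravity flanks minus control (horizontal) against shaded minus lit flank (vertical), both log2, for the members (red) and the other tested probe sets (grey); the members run from -1.02 to 2.26 horizontally, AT3G25810 being the highest, and from -0.84 to 1.02 vertically. Right, mean log2 signal over 15 arrays against the residual SD of log2 signal within groups; 72 of the 84 members lie above the median SD of all tested probe sets, 0.35.

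Of the members, 9 were kept by the rule on leaving out each of the 15 arrays in turn, and 6 of them carried a name: AT2G39630, AT3G15120, AT4G09520, AT5G53880, AT3G05920 and RBL. These 6 were also kept with quantile normalization, with centred arrays, with an offset of 50 and with group medians in place of means. This applies the rule again to the values that chose the members. It favours wide gaps and is no separate measure of reliability. AT2G39630 and AT4G09520 were kept although some blue light arrays of each lay within the control range. Probe sets of the s type, which can bind several transcripts, made up 4.76% of the members and 3.2% of all tested probe sets.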

How the data were processed

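The members and gene lists were chosen with earlier results of these data known. The 15 deposited columns hold intensity, a linear Affymetrix signal for each probe set. Per the submitters' processing notes it came from GCOS 3.0; the sources used here do not give its settings. The mean of each array with 2% trimmed from both ends was 500. Groups came from the sample titles; the extract protocol of some gravity samples names a shaded flank. The 1 value at or below 0 was set to 0.4, log2 was taken, the 64 control probe sets were left out, and the limit of 8.28 is the median mean log2 signal. Names came from the array's annotation table: 13513 probe sets had 1 symbol, 503 several and 8730 none. Means of the 5 groups were estimated from all arrays by limma 3.58.1 under R 4.3.3 (eBayes with intensity trend, Benjamini-Hochberg threshold 0.05, SEs from the moderated fit) and tested on simulated data. Values per array were compared with exact permutation tests (scipy 1.17.1). Named were the 30 single-gene members of widest gap, those past a threshold between flanks or between gravity and control and the 3 nearest each side of the gap. The symbol FDH was not counted as an epidermis match because it belongs to another gene there. The number of arrays limits the precision.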

Additional observations from a re-analysis of the deposited data

How the results depend on the processing

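The rule chose 84 members, and 342 without the level filter, 34 among the brightest 30% of probe sets, 159 with a gap of 0.3 and 50 with a gap of 0.5. It chose 91 after quantile normalization, 108 after centring each array, 67 with an offset of 50 and 87 with group medians, of which 78, 84, 67 and 40 were among the 84, and 71 to 107 on leaving out 1 array. The median difference over members stayed between -0.84 and -0.70 against the control and between -0.90 and -0.75 against gravity, a range the choice of members fixes in part. Called probe sets over the whole table moved more. For shaded minus lit the count was 0, and 1 with the replicate block. It was 2 without shaded replicate 1, 1 without lit replicate 1 and 3 without lit replicate 3, and 1 without control replicate 1 or 2 (0 to 3). For bottom minus top it was 4, 0 under quantile normalization, centred arrays, no filter or no intensity trend, 1 with only the compared groups and 13 with the replicate block. Without 1 array it was 0 to 7, with 7 without bottom replicate 1, 2 without top replicate 3, 1 without bottom replicate 2 or top replicate 1, and 0 without bottom replicate 3, top replicate 2, shaded or lit replicates 2 and 3, or any control array. For gravity minus control it was 83, 142 among the brightest 30%, 37 without the trend and 169 with array weights, and 30 to 99 without 1 array (55 without top replicate 1, and 50, 30 and 47 without control replicates 1, 2 and 3). For the elongating flanks it was 27, 15 without the filter, 4 without the trend and 42 with the replicate block, and 5 to 29 without 1 array (16 and 5 without shaded replicates 1 and 2, 16 and 6 without lit replicates 2 and 3, 12 and 6 without bottom replicates 2 and 3, and 12 without top replicate 1). For blue light minus control it was 25, 11 without the filter, 57 among the brightest 30%, 9 without the trend, 60 with array weights, 13 with only the compared groups and 11 with the replicate block, and 1 to 61 without 1 array (5 and 9 without shaded replicates 1 and 2, and 1, 3 and 61 without control replicates 1, 2 and 3). For blue light minus gravity it was 253, 145 without the filter and 106 without the trend, and 132 to 252 without 1 array (146 without shaded replicate 1, 139 without lit replicate 3, 159 and 132 without bottom replicates 2 and 3, and 150 and 154 without top replicates 2 and 3). The cause of these moves was not tested. The 3' minus 5' difference ranged from -0.49 to -0.20 against the control, the latter without control replicate 1, and from -0.19 to -0.10 against gravity on leaving out 1 array. It passed without shaded replicate 3 (-0.42 and -0.19, both adjusted exact permutation p = 0.036), with all arrays taken as independent. The labels do not say whether equal replicate numbers pair the samples, and the main fit treated the arrays as unpaired. Deviations of same-numbered shaded and lit arrays correlated at 0.13, 0.15 and 0.04, and those of bottom and top at 0.06, 0.00 and -0.02. Every shaded array correlated best with the lit array of its own number, which is a hint from the data and not the design.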

Other observations

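Members beyond the 30 of widest gap include genes chosen here after their values were seen. AT3G50350 and AT3G50370, whose locus numbers lie close together, were both members, with differences from the control of -0.74 (SE 0.58) and -0.85 (SE 0.26) and from gravity stimulation of -1.67 (SE 0.47) and -0.72 (SE 0.21). AT3G50350 lay at 69.3 to 443.0 on 3 blue light arrays and at 589.0 to 895.9 on the other 3. SCPL43, a serine carboxypeptidase-like gene, had differences of -0.71 (SE 0.49) and -0.43 (SE 0.40), and 680.8 on lit replicate 3 was above every other array. AT1G70550, of the family with a neprosin domain, and AT1G23180, with armadillo repeats, differed from the control by -0.56 (SE 0.30) and -0.48 (SE 0.27).

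Below the level limit, 258 dimmer probe sets also had both blue light means at least 0.4 below the other 3 and are not described here.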
